A study of Oryctolagus cuniculus with 9 samples.

Results

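Injured rabbit vocal folds that had been given a material called SOT were compared with normal vocal folds, to ask which transcripts still differed from uninjured tissue 1 week after injury. The comparison took in 6 of the 9 RNA sequencing libraries of the study, 3 from SOT-treated injured folds and 3 from normal folds without injury, chosen by their treatment labels. The other 3 libraries came from injured folds left without treatment and taken at the same time. SOT is a hydrogel that the study title describes as antioxidant and adhesive, and the labels do not spell out the name. No strain, sex or age is given for the animals, and the labels do not say whether replicates of a group came from separate animals, so every p-value below describes only how far these libraries varied, part of which may be technical.

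The vocal fold is a layered tissue. A stratified squamous epithelium lies on a lamina propria of fibroblasts, collagen, elastin and hyaluronan, and beneath it lies the thyroarytenoid muscle, with laryngeal cartilage, seromucous glands and nerve nearby. After injury, neutrophils and then macrophages enter the wound, fibroblasts lay down provisional and then collagenous matrix, proteases remodel it, and torn muscle fibres regenerate through an embryonic gene programme. A stiff, collagen-rich lamina propria impairs vibration, which is why matrix genes are followed in this tissue.

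Whole tissue was measured. The labels name histiocytes as the cell type. Normal folds held mean levels per transcript length of 4337 FPKM for KRT13, a keratin of squamous epithelium, against 21.6 FPKM for the macrophage gene CD68. Levels below are otherwise in CPM, read counts scaled to library size by edgeR, as mean ± SD over 3 libraries. Summed over the list, 42 skeletal muscle genes held 43247.5 to 50603 CPM in normal folds, against 799 to 1163 CPM for 26 macrophage markers. Positions refer to the rabbit build OryCun2.0. In whole tissue, fewer cells of a type and less RNA per cell cannot be told apart.

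The libraries were deep and similar in size, with total counts from 44755718 to 45521838 in normal, 48444181 to 49434268 in SOT and 49771566 to 50338111 in untreated folds. The SOT libraries were the most unlike each other. The SD of log2 CPM over a group's libraries exceeded 1 for 13.7% of tested genes in SOT folds, against 8.10% in normal and 8.49% in untreated folds. One library of the untreated group did not look like an independent sample. Among genes with a mean of at least 20 CPM in that group, 358 differed by more than 2-fold between untreated replicates 1 and 2, and untreated replicate 3 lay between them for 357 of these (99.7%). Its value sat at a median of 37.5% of the way from replicate 2 to replicate 1, with 24.7% and 49.5% as the 5th and 95th percentiles over genes. For the 8 other libraries the same share was between 2.07% and 67.6%. How this library came to lie between its neighbours was not tested. It matters here because all 9 libraries shared 1 estimate of the spread, so counts of genes are also given without it.

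SOT-treated injured folds differed broadly from normal folds. The parts of injury, of SOT and of how much muscle, cartilage, nerve or gland each dissected fold held were not tested. Gene lists and their members were chosen with earlier results of these data known, so their shares are descriptions and not independent evidence. With all 9 libraries, the lists of macrophages, lysosomes, interferon response, matrix proteolysis and fibrillar matrix had most of their members higher in SOT folds. Those of cartilage and mitochondrial energy metabolism had most of their members lower. Fewer passed in every fit that left 1 library out. These were 12 of 26 macrophage, 12 of 34 lysosomal, 1 of 24 interferon, 9 of 31 proteolysis and 7 of 29 fibrillar matrix genes among the rises. Among the falls they were 6 of 22 cartilage genes and 9 of 29 on each mitochondrial list. Of 17344 genes tested, 2888 (16.7%) differed, 1572 (9.06%) higher and 1316 (7.59%) lower in SOT folds, at an adjusted p under 0.05 in edgeR's quasi-likelihood test. Higher genes made up 54.4% of those that differed, and 65.5% when libraries were scaled by total counts alone. The median log2 difference over all tested genes was 0.02. Changes were often large: 153 genes were at least 8-fold higher and 154 at least 8-fold lower. Lack of overlap between the groups was common. Of the 17344 genes, 3093 had all SOT values above all normal values and 3222 had them all below. Counts for lists below are to be read beside the 9.06% of all genes that were higher and the 7.59% that were lower.

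The number of genes rested on which libraries were used. Without untreated replicate 3 it was 1745 (9.85%), of which 1735 had also passed with all 9 libraries. With the SOT and normal libraries alone it was 1536, made up of 677 higher and 859 lower. It fell to 1126 without normal replicate 1, to 1436 without normal replicate 2, to 1675 without SOT replicate 2, and was 3217 without SOT replicate 3. A core of 959 genes passed with all 9 libraries and in each of the 9 fits that left 1 library out, and 937 of these also passed with the SOT and normal libraries alone. Genes given below as risen or fallen belong to both of those sets, unless the libraries their call rests on are named beside them.

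**Figure D1:**
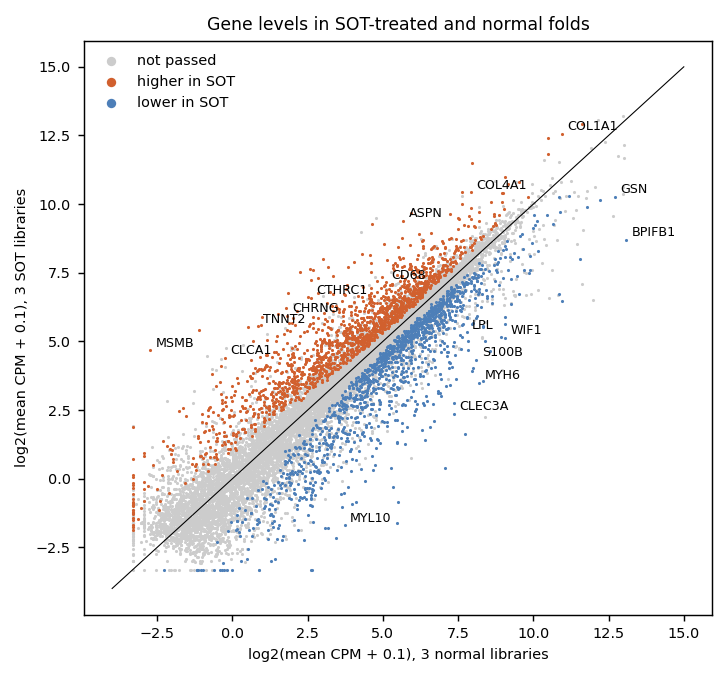
Each point is a gene, with the log2 of its mean CPM plus 0.1 in the 3 normal libraries on the horizontal axis and in the 3 SOT libraries on the vertical axis. Orange points are the 1572 genes higher and blue points the 1316 genes lower in SOT folds, the black line marks equal levels, and named genes such as CD68 above the line and WIF1 below it are labelled.

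**Figure D2:**
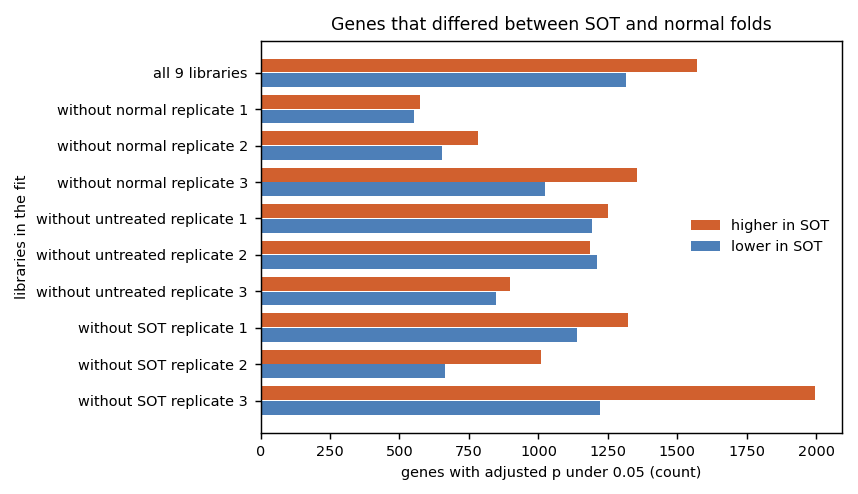
Bars count genes higher (orange) or lower (blue) in SOT than in normal folds at an adjusted p under 0.05, with all 9 libraries and with each library left out. The total ranged from 1126 without normal replicate 1 to 3217 without SOT replicate 3.

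Macrophage genes were higher in every SOT library. CD68 encodes a glycoprotein of macrophage lysosomes and lies on chromosome 19, from 11598423 to 11600560. It stood at 29.9, 33.1 and 40.1 CPM in normal replicates 1 to 3 and at 153, 142 and 129.9 CPM in the SOT replicates. The 3 SOT values lay close together and far above all normal values, and CD68 rose 4.12-fold (log2 fold change 2.04, SE 0.13, adjusted p = 0.00255). CLEC7A, the beta-glucan receptor dectin-1, rose from 4.56 ± 0.802 to 30.9 ± 11.1 CPM (adjusted p = 0.00257). ITGAM, the integrin chain CD11b of myeloid cells, rose from 8.81 ± 2.12 to 53.7 ± 20.1 CPM (adjusted p = 0.00316). GPNMB, a glycoprotein of lipid-handling and phagocytic macrophages, rose 6.32-fold (adjusted p = 0.00255). Scavenger receptor MSR1 rose 6.10-fold and the complement C5a receptor C5AR1 rose 3.71-fold. Of 26 macrophage markers tested, 17 rose and none fell, against 9.06% and 7.59% of all genes, with a median log2 difference of 1.51. The count was 11 with the SOT and normal libraries alone.

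Not all macrophage genes followed. MRC1, the mannose receptor CD206, which marks resident and alternatively activated macrophages, stood at 71.5, 78.7 and 67.9 CPM in normal replicates and at 125, 55.0 and 44.6 CPM in SOT replicates. SOT replicate 1 was above every normal library and SOT replicates 2 and 3 below every one, so the groups overlapped (log2 fold change 0.04, adjusted p = 0.947). Without SOT replicate 1 the MRC1 difference was -0.52 and passed (adjusted p = 0.0456). CD163, the haemoglobin scavenger receptor, stood at 86.7, 64.7 and 29.2 CPM in SOT folds against 23.1 to 28.8 CPM in normal folds. It passed with all 9 libraries (adjusted p = 0.0454) and in 1 of the 9 fits that left 1 out.

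CD22 was the only B cell or plasma cell gene of 16 tested to pass, an inhibitory lectin receptor of B cells that other cell types can also express. It stood at 21.1, 19.8 and 26.7 CPM in SOT replicates against 4.47, 4.27 and 2.93 CPM in normal replicates, with no overlap (log2 fold change 2.54, SE 0.19, adjusted p = 0.00255). The median log2 difference of the whole list was -0.25. No marker of T and NK cells (22 tested) or mast cells (5 tested) passed. SOT replicate 3 was above the highest normal library for 21 of the 22 T and NK cell markers and SOT replicate 2 for 2 of them. Over all genes the shares in these libraries were 34.4% and 36.1%. The summed level of the T and NK cell markers ranged from 65.5 to 241 CPM in SOT folds and from 60.7 to 68.0 CPM in normal folds.

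Lysosomal genes rose together with the macrophage markers. CTSS, a cathepsin that trims antigen in myeloid cells, was at 197, 199 and 278 CPM in SOT replicates against 65.6, 66.5 and 47.8 CPM in normal replicates. The groups did not overlap and CTSS rose 3.75-fold (adjusted p = 0.00257). LAPTM5, a lysosomal membrane protein of leukocytes, rose 3.43-fold, and the cathepsins CTSB and CTSH rose 2.76-fold and 2.67-fold. Of 34 lysosomal genes 21 rose and none fell, with a median log2 difference of 0.60. Leaving out normal replicate 1 gave 12 rises, and leaving out normal replicate 2 or untreated replicate 3 gave 13. CD74, the invariant chain that escorts MHC class II molecules, rose from 569 ± 157 to 1701 ± 487 CPM (adjusted p = 0.0122). Of 16 antigen presentation genes 5 rose and none fell, so that 31.2% passed against 16.7% of all genes. The number that rose was 2 without normal replicate 1, 3 without normal replicate 2 and 11 without SOT replicate 2.

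The oxidant-producing enzyme of phagocytes was higher too. CYBB, the catalytic subunit NOX2, was at 36.1, 22.7 and 28.7 CPM in SOT replicates and at 9.22, 8.38 and 10 CPM in normal replicates, without overlap (3.17-fold, adjusted p = 0.00376). Its GTPase RAC2 rose 3.24-fold. Of 16 genes on the list of enzymes that make reactive oxygen species 7 rose and 1 fell, so that 50% passed against 16.7% of all genes. Without normal replicates 1, 2 and 3, 3, 2 and 4 rose, and 4 did with the SOT and normal libraries alone. The summed level was 508, 319 and 706 CPM in SOT replicates 1 to 3. In normal folds it was 315 to 389 CPM, so SOT replicate 2 lay inside the normal range.

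**Figure D3:**
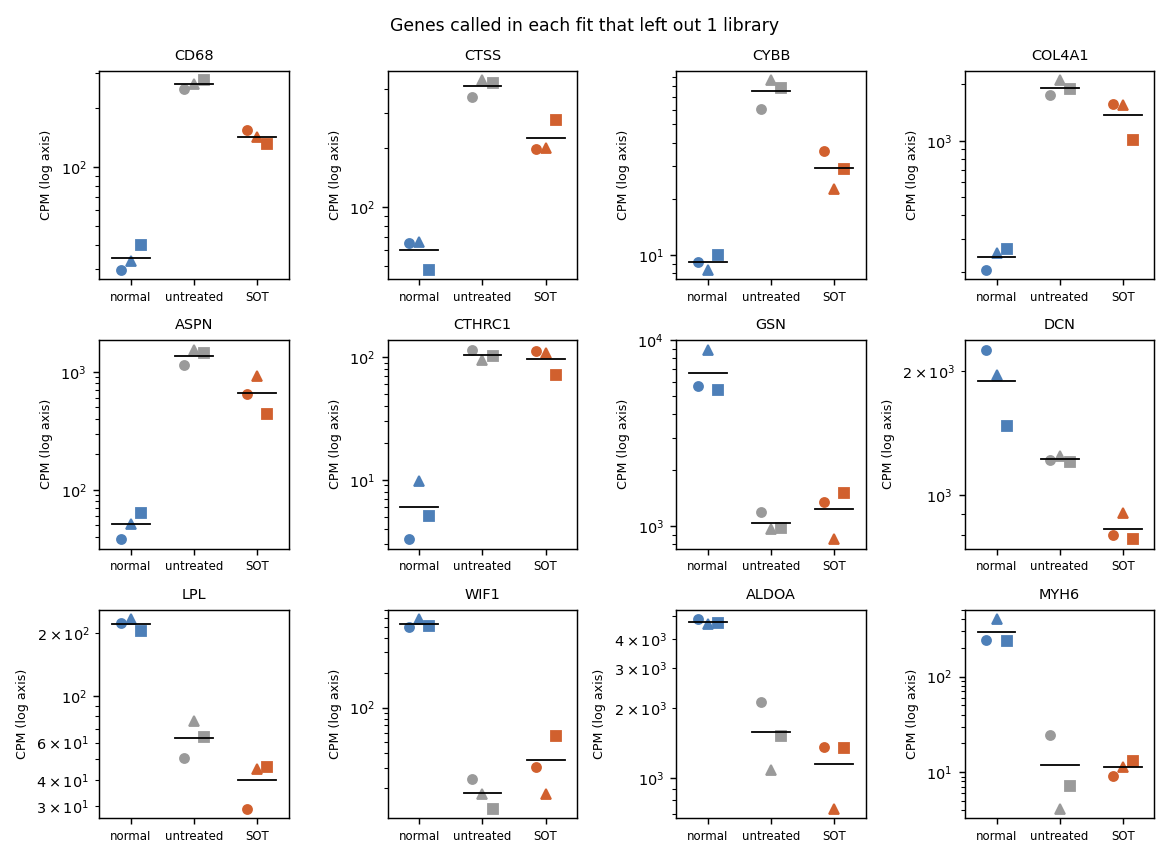
Each panel gives 1 gene in CPM on a log axis, with circles, triangles and squares for replicates 1, 2 and 3 of the normal, untreated and SOT groups and a line at each group's mean. In all 12 genes the SOT values lie entirely above (CD68 to CTHRC1) or below (GSN to MYH6) the normal values.

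TNF, IL1B and CXCL8, central inflammatory mediators, were far higher in SOT replicate 1 than in the other SOT libraries. TNF stood at 168, 4.80 and 5.09 CPM in SOT replicates 1 to 3 against 1.57 to 2.34 CPM in normal folds. IL1B stood at 1392, 83.1 and 25 CPM against 6.06, 25.4 and 25.9 CPM, and CXCL8, the chemokine that draws in neutrophils, at 1981, 132 and 33.4 CPM against 9.68, 30.5 and 42.0 CPM. SOT replicate 1 was far above the rest, while SOT replicate 3 lay within the normal range for IL1B and CXCL8. TNF passed with all 9 libraries (adjusted p = 0.0488). With 1 library left out it passed only where that was SOT replicate 2 or 3, and its highest adjusted p was 0.143. IL1B (adjusted p = 0.0554) and CXCL8 (adjusted p = 0.0571) did not pass.

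Counts for the cytokine, chemokine and neutrophil lists fell more without normal replicate 1 or 2 than without SOT replicate 1. Levels were highest in SOT replicate 1, with summed cytokine and receptor levels of 4810, 2190 and 1605 CPM in SOT replicates 1 to 3. The chemokine list stood at 3282, 766 and 715 CPM. Of 30 inflammatory cytokines and receptors 12 rose, with 9 left without SOT replicate 1. The count was 3, 5 and 7 without normal replicate 1, normal replicate 2 and untreated replicate 3, and 20 without SOT replicate 3. In each SOT library most of the 30 were above the highest normal library, 24, 24 and 17 in replicates 1, 2 and 3. Of all genes, 34.6%, 36.1% and 34.4% were. Of 28 chemokines and receptors 11 rose, with 8 without SOT replicate 1, 3 without normal replicate 1 or 2, 4 without normal replicate 3 and 7 without untreated replicate 3. Among 15 neutrophil markers 5 rose. None did with normal replicate 1, normal replicate 2 or untreated replicate 3 left out, and the number was 9 without SOT replicate 3. Dropping normal replicate 3 left 2 rises, as did dropping SOT replicate 1. Leaving out untreated replicate 1 or 2 gave 3 rises. The median log2 change of the neutrophil markers from the normal mean was 4.10, 1.93 and 0.75 in SOT replicates 1, 2 and 3.

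Interferon-stimulated genes were higher in all SOT libraries. IRF7, a transcription factor that amplifies interferon output, stood at 110.1, 113 and 555 CPM in SOT replicates against 36.9, 51.8 and 65.0 CPM in normal replicates, with no overlap. Of 24 genes on the list, 24, 22 and 24 were above the highest normal library in SOT replicates 1, 2 and 3, compared with between 34.4% and 36.1% of all genes. In the test 18 rose and none fell, with a median log2 difference of 1.49. That count was 1, 5 and 8 without normal replicates 1, 2 and 3, and 9, 8 and 7 without untreated replicates 1, 2 and 3. The antiviral genes IFIT3 and RSAD2 rose 5.26-fold and 5.52-fold, and both calls were lost without normal replicate 1 (adjusted p = 0.0532 and 0.0535). IRF7 passed with all 9 libraries (adjusted p = 0.0381) but not without any single normal or untreated library (highest adjusted p 0.123). T cell markers were also highest in SOT replicate 3, and their part in the interferon values was not tested.

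In complement, 4 of 22 genes rose and 1 fell, so that 22.7% passed against 16.7% of all genes. With 1 library left out 3 or 4 rose, and with the SOT and normal libraries alone 2 did. CFB, factor B of the alternative pathway, rose from 124 ± 47.1 to 402 ± 112 CPM (adjusted p = 0.0109). CD59, which blocks the membrane attack complex on host cells, fell from 57.4 ± 4.97 to 16.2 ± 5.53 CPM (adjusted p = 0.0155).

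Several matrix and fibroblast genes were at least 10-fold higher in SOT folds. CTHRC1, a secreted protein of activated fibroblasts, stood at 112, 107 and 70.6 CPM in SOT replicates and at 3.30, 9.72 and 5.11 CPM in normal replicates. The lowest SOT value was far above the highest normal value, and CTHRC1 rose strongly (log2 fold change 4.0, SE 0.40, adjusted p = 0.00257). ASPN, asporin, a small leucine-rich proteoglycan that binds collagen and TGF-beta, stood at 645, 917 and 439 CPM against 38.2, 50.9 and 64.0 CPM, again without overlap (13.1-fold, adjusted p = 0.00255). P4HA3, a prolyl hydroxylase subunit needed for stable collagen helices, rose 12.4-fold. COL5A3, a chain of the collagen that sets fibril diameter, rose 11.4-fold, and TNC, tenascin C of provisional matrix, rose 13.5-fold. LRRC15, a membrane protein of TGF-beta-responsive fibroblasts, rose from 0.662 ± 0.460 to 17.1 ± 10.5 CPM (adjusted p = 0.00459).

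The main fibrillar collagens varied more. COL1A1 on chromosome 19 at 37474894 to 37490691, the alpha 1 chain of type I collagen, stood at 4768, 9401 and 4018 CPM in SOT replicates and at 1384, 2370.4 and 2195 CPM in normal replicates. All SOT values were above all normal values and it passed (3.06-fold, adjusted p = 0.0200), though not without normal replicate 1 (adjusted p = 0.0690) nor with the SOT and normal libraries alone (adjusted p = 0.0642). COL3A1, type III collagen of young scar and vessel walls, stood at 5383, 12137 and 8295 CPM against 3799.5, 4371 and 5574 CPM. SOT replicate 1 fell inside the normal range, and COL3A1 did not pass (adjusted p = 0.0725). FN1, fibronectin, stood at 3427, 10214 and 2477 CPM against 1241 to 1636 CPM, and its call (adjusted p = 0.0327) was lost without any single normal or untreated library (highest adjusted p 0.108). Among the SOT and normal libraries, SOT replicate 2 held the highest level of each of these 3 genes.

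Of 29 fibrillar matrix genes 15 rose and none fell, with a median log2 difference of 0.97. The count was 7 and 8 without normal replicates 1 and 3, and 8 with the SOT and normal libraries alone. The ratio of COL1A1 to COL3A1 counts, which is often followed in scars, was 0.886, 0.775 and 0.484 in SOT replicates and 0.364, 0.542 and 0.394 in normal replicates. SOT replicate 3 fell below normal replicate 2, and the means of 0.715 ± 0.207 and 0.433 ± 0.0954 gave no difference past the threshold in a two-sided exact permutation test (p = 0.2, with 0.1 the smallest that 3 against 3 libraries can give).

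Basement membrane collagens moved in opposite directions. COL4A1, whose product forms the common type IV network with that of the neighbouring gene COL4A2, stood at 1561, 1555 and 1014 CPM in SOT replicates and at 206, 254 and 265 CPM in normal replicates. The groups were far apart, and COL4A1 rose 5.70-fold (adjusted p = 0.00255) and COL4A2 5.36-fold (adjusted p = 0.00255). COL4A6, a chain of the separate network found around epithelia and smooth muscle, was far lower, at 16.5 ± 8.06 CPM against 107 ± 25.1 CPM (log2 fold change -2.70, SE 0.44, adjusted p = 0.00905). Of 24 basement membrane genes 12 rose and 4 fell. The rises numbered 7 without normal replicate 1, and the falls numbered 2 without normal replicate 1, untreated replicate 3, SOT replicate 1 or SOT replicate 2 and 1 without normal replicate 2.

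Most matrix proteases were higher in SOT folds. MMP12, the macrophage elastase, stood at 214, 240.4 and 22.8 CPM in SOT replicates against 3.55, 8.51 and 9.15 CPM in normal replicates, and SOT replicate 3 was nearest to normal without overlapping it (22.5-fold, adjusted p = 0.0125). ADAM12, a metalloprotease of activated mesenchyme, rose 17.5-fold (adjusted p = 0.00728). MMP9, a gelatinase, stood at 104, 77.5 and 9.70 CPM against 0.945 to 4.13 CPM, and its call (adjusted p = 0.0148) was lost without normal replicate 1 or 2 (highest adjusted p 0.0527). Of 31 proteolysis genes 20 rose and 2 fell, with a median log2 difference of 1.9. The rises numbered 9 without normal replicate 1 or 2 and 13 without SOT replicate 2.

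Elastic fibre, hyaluronan and small proteoglycan genes moved both ways, with 7 of 28 lower, 5 higher and a median log2 difference of 0.14. DCN, decorin, which limits collagen fibril width, stood at 804, 906 and 784 CPM in SOT replicates and at 2258, 1965 and 1471 CPM in normal replicates, without overlap (log2 fold change -1.19, SE 0.17, adjusted p = 0.00646). FMOD, fibromodulin, a related proteoglycan, fell from 277 ± 121 to 59.9 ± 24.7 CPM (adjusted p = 0.0121). MFAP5, a microfibril glycoprotein, fell from 923 ± 109.6 to 179 ± 74.8 CPM (adjusted p = 0.00905). These were among the 7 that fell, and that number was 7 or 8 in every fit that left out 1 library. The rises, ASPN among them, numbered 3 without normal replicate 1 and 8 without SOT replicate 3.

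Elastin and the hyaluronan synthase did not pass. ELN, elastin, stood at 260.2, 571 and 1095 CPM in SOT replicates and at 533, 978 and 740.5 CPM in normal replicates. SOT replicate 1 was below every normal library and SOT replicate 3 above every one (log2 fold change -0.23, SE 0.46, adjusted p = 0.776). HAS2, the main hyaluronan synthase of the lamina propria, was at 27.0 ± 15.4 CPM against 12.2 ± 5.11 CPM (adjusted p = 0.126).

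In the TGF-beta pathway, TGFB1, the ligand, rose from 12.4 ± 1.47 to 29.6 ± 5.00 CPM (adjusted p = 0.0045). TGFBR3, the co-receptor betaglycan, fell from 223 ± 22.9 to 59.5 ± 11.2 CPM (adjusted p = 0.00559). ACTA2, the smooth muscle actin of myofibroblasts, stood at 433, 639 and 152 CPM in SOT replicates against 312, 269 and 169 CPM in normal replicates, with SOT replicate 3 below every normal library (adjusted p = 0.330). Of 24 genes on the list 5 rose and 1 fell, and 12 rose without SOT replicate 3. With all 9 libraries 25% of the list passed, against 16.7% of all genes.

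**Figure D4:**
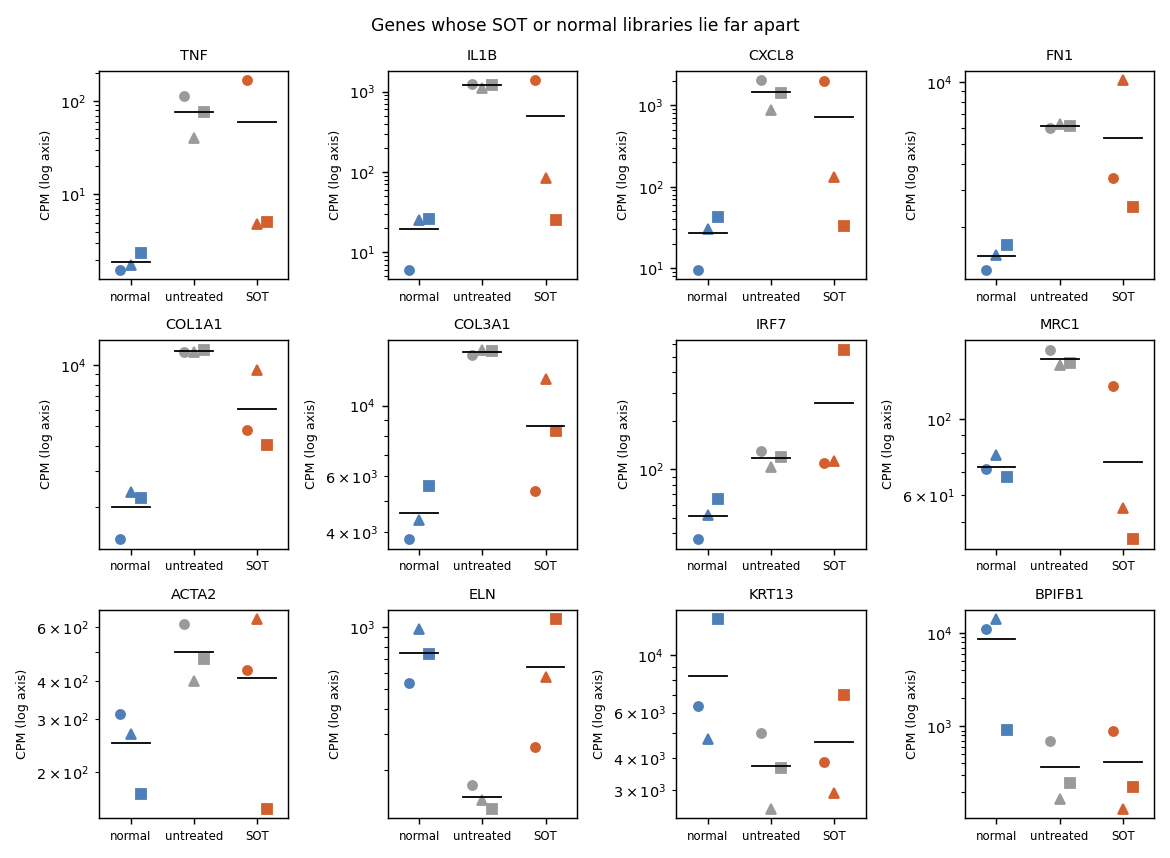
Panels are drawn as for the steadier genes, in CPM on a log axis with circles, triangles and squares for replicates 1, 2 and 3. Among the SOT libraries, TNF, IL1B and CXCL8 are highest in replicate 1 and FN1, COL1A1 and COL3A1 in replicate 2. Of the same libraries, replicate 3 is highest for IRF7 and ELN. Untreated COL1A1 values lie above all SOT values. BPIFB1 and KRT13 set normal replicate 3 apart.

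Cartilage genes were the list furthest below normal. CLEC3A, a lectin of cartilage matrix, stood at 4.13, 1.14 and 9.94 CPM in SOT replicates and at 176, 209 and 108 CPM in normal replicates, without overlap (log2 fold change -5.02, SE 0.79, adjusted p = 0.00806). SCRG1, made in differentiating chondrocytes, fell from 12.3 ± 8.57 to 0.389 ± 0.195 CPM (adjusted p = 0.0114). Of 22 cartilage genes 18 fell and none rose, with a median log2 difference of -3.04, and the count was 8, 6 and 11 without normal replicate 1, normal replicate 2 and SOT replicate 2. The summed level of the list ranged from 3212 to 6759 CPM in normal folds and from 325 to 840.1 CPM in SOT folds. The lowest normal library held more of it than the highest SOT library.

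Skeletal muscle genes had a median log2 difference of -1.87 but spread widely between libraries. MYH6, the alpha cardiac myosin heavy chain that some head and neck muscles also express, stood at 9.14, 11.3 and 13.2 CPM in SOT replicates and at 241, 399 and 234 CPM in normal replicates. The groups were far apart and MYH6 fell 26.0-fold (adjusted p = 0.00622), with the reservation that myosin heavy chains are similar in sequence and may share reads. TPM2, beta tropomyosin, fell from 3536 ± 270.2 to 945 ± 325 CPM (adjusted p = 0.0147), and MYL3, a ventricular and slow-fibre myosin light chain, fell from 52.9 ± 23.2 to 2.32 ± 1.24 CPM (adjusted p = 0.0101). MYL10, a regulatory myosin light chain, fell 62.0-fold (adjusted p = 0.00255). MYH13, the superfast myosin of eye and laryngeal muscles, stood at 108, 42.7 and 112 CPM against 2226, 1983 and 1689 CPM. It passed with all 9 libraries (adjusted p = 0.0359) and with the SOT and normal libraries alone (adjusted p = 0.0127), but not without untreated replicate 3 (adjusted p = 0.0640) nor without any single normal or SOT library (highest adjusted p 0.103).

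In all, 8 of 42 muscle genes fell and none rose, so that 19% passed against 16.7% of all genes. The count was 11 with the SOT and normal libraries alone, 3 without any single normal library, untreated replicate 3 or SOT replicate 2, 5 and 4 without SOT replicates 1 and 3, and 15 without untreated replicate 2. The list spread widely in both injured groups, and its median change from the normal mean was -1.52, -3.72 and -1.39 in SOT replicates 1, 2 and 3 and -1.28, -4.72 and -2.36 in the untreated replicates.

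A few genes of regenerating and denervated muscle were higher. CHRNG, the fetal gamma subunit of the muscle acetylcholine receptor, stood at 92.9, 26.1 and 64.0 CPM in SOT replicates and at 2.63, 2.99 and 4.63 CPM in normal replicates, without overlap (17.8-fold, adjusted p = 0.0110). TNNT2, the cardiac and embryonic troponin T, stood at 47.4, 26.5 and 65.5 CPM against 0.715, 2.27 and 2.10 CPM (27.4-fold, adjusted p = 0.00600). ANKRD1, a stretch-responsive sarcomeric repressor, rose 32.4-fold (adjusted p = 0.0117), and RUNX1, a transcription factor induced in denervated muscle and also in blood cells, rose 2.73-fold (adjusted p = 0.00634). MYH3, the embryonic myosin, stood at 419.9, 276 and 762 CPM against 63.3 to 86.8 CPM, and its call (adjusted p = 0.0195) was lost without any single normal library (highest adjusted p 0.0702). Of 23 genes on the regeneration and denervation list, which holds neither TNNT2 nor ANKRD1, 5 rose and none fell. That is 21.7% of the list, against 16.7% of all genes that passed in either direction. The rises numbered 2 without normal replicate 1 or 2 and 3 without normal replicate 3. SOT replicate 2 went against these rises, with 13 of the 23 genes below the lowest normal library and 5 above the highest. Of all genes, 34.9% and 36.1% were so placed in that library. The summed level of the list was lower in every SOT library (1134 to 3602 CPM) than in every normal library (3608 to 4828 CPM).

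Mitochondrial genes were lower, in most cases by less than 2-fold, and the genes named here are among those that fell most. SDHA, the catalytic subunit of succinate dehydrogenase, stood at 317, 191 and 303 CPM in SOT replicates and at 769, 749 and 656 CPM in normal replicates, without overlap (log2 fold change -1.42, SE 0.22, adjusted p = 0.00793). The complex III iron-sulphur subunit UQCRFS1 fell 2.58-fold and the complex I subunit NDUFS1 fell 2.01-fold. COX7A1 was lower still, with log2 fold changes from -3.98 to -2.95 over the fits that left out 1 library. It passed with all 9 libraries (adjusted p = 0.0388) and in 3 of those 9 fits. In fatty acid oxidation, the muscle carnitine transferase CPT1B fell 3.03-fold and the dehydrogenase ACADM 2.5-fold.

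Of 29 oxidative phosphorylation genes 22 fell and none rose, and of 29 genes of the citric acid cycle and fatty acid oxidation 23 fell and none rose, with medians of -0.73 and -0.64. The first count was 9 without normal replicate 1 and 14 without SOT replicate 2. The second was 9, 14 and 15 without normal replicate 1, normal replicate 2 and SOT replicate 2, and 14 with the SOT and normal libraries alone. Both lists were lowest in SOT replicate 2 (medians of -1.12 and -0.92), the library in which muscle genes were also lowest, and the part of muscle content in these falls was not tested.

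Both aldolase genes named here were lower. ALDOA stood at 1361, 737 and 1346 CPM in SOT replicates and at 4865, 4644 and 4696 CPM in normal replicates (log2 fold change -2.04, SE 0.31, adjusted p = 0.00751). Normal libraries were almost equal and all SOT libraries far below them. ALDOC, the aldolase of nerve and some other tissues, fell 15.9-fold (adjusted p = 0.00756). HIF1A, the oxygen-regulated transcription factor, stood at 492, 369 and 159 CPM against 91.1 to 108 CPM (adjusted p = 0.0156), and lost its call without normal replicate 1 (adjusted p = 0.0600). VEGFA, its classic target, was at 249 ± 85.4 CPM against 277 ± 48.1 CPM and did not pass (adjusted p = 0.709). On the list of 32 hypoxia and glycolysis genes, 4 rose while 5 fell, so that 28.1% passed against 16.7% of all genes. The rises numbered 11 without SOT replicate 3, 0 without normal replicate 1, 1 without normal replicate 2 or untreated replicate 3 and 2 without each of the others, and the falls numbered 9 without SOT replicate 1.

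Nerve genes were also below normal, and some fat genes were. S100B, a calcium-binding protein of Schwann cells and chondrocytes, stood at 12.3, 7.44 and 40.2 CPM in SOT replicates against 194, 474 and 156 CPM, and its call (adjusted p = 0.0199) was lost without normal replicate 2, SOT replicate 1 or SOT replicate 2 (highest adjusted p 0.0560). Of 26 nerve and Schwann cell genes 9 fell, with 5 and 3 without normal replicates 1 and 2, and 1 rose. In all 38.5% of the list passed, against 16.7% of all genes. The gene that rose was the neuronal intermediate filament gene PRPH. It was at 0 in all normal libraries and at 0.531, 0.336 and 0.483 CPM in SOT libraries (adjusted p = 0.0469). The PRPH call held in 1 of the 9 fits that left out 1 library.

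LPL, the lipoprotein lipase of fat and muscle, stood at 29.2, 45.0 and 46.1 CPM in SOT replicates and at 222, 232 and 205 CPM in normal replicates, without overlap (5.48-fold lower, adjusted p = 0.00255). The leptin receptor LEPR fell 15.3-fold (adjusted p = 0.00882). ADIPOQ, the fat hormone adiponectin, went the other way, from 119 ± 9.75 to 288 ± 103 CPM (adjusted p = 0.0114). Of 19 adipocyte genes 5 fell and 1 rose, so that 31.6% passed against 16.7% of all genes. There were 3 falls without normal replicate 1 or 2. The summed level of the list was 1243, 758 and 837 CPM in SOT replicates 1 to 3. In normal folds it was 1094 to 1181 CPM, so SOT replicate 1 was above every normal library.

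Secreted signals and their regulators moved both ways. WIF1, a secreted inhibitor of WNT ligands on chromosome 4 at 43863053 to 43948970, stood at 30.6, 17.7 and 57.1 CPM in SOT replicates and at 499, 582 and 507 CPM in normal replicates. No library was near the other group, and WIF1 fell 15.1-fold (adjusted p = 0.00316). LEF1, a transcription factor of the WNT pathway, rose 3.35-fold (adjusted p = 0.0078). BMP5 fell 3.20-fold and the activin antagonist FST fell 3.12-fold. FGF10, a mesenchymal growth factor for epithelium and glands, fell from 36.8 ± 2.23 to 6.92 ± 4.10 CPM (adjusted p = 0.0103). VEGFC, which drives lymphatic growth, rose 2.76-fold (adjusted p = 0.0108). KDR, a VEGF receptor of endothelium, rose 1.88-fold (adjusted p = 0.0131). Of 42 genes of BMP, WNT and Notch signalling 4 rose and 5 fell, so that 21.4% passed against 16.7% of all genes. The rises numbered 1 without normal replicate 2 or SOT replicate 2, 2 with normal replicate 1, normal replicate 3, untreated replicate 3 or SOT replicate 1 left out, and 7 without SOT replicate 3. The falls numbered 3 with normal replicate 1, normal replicate 2, untreated replicate 3 or SOT replicate 2 left out.

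GSN, the actin-severing protein gelsolin, was among the 5 most abundant genes in SOT folds of those that fell. It stood at 1356, 855 and 1504 CPM in SOT replicates and at 5673, 8904 and 5399 CPM in normal replicates, without overlap (log2 fold change -2.43, SE 0.29, adjusted p = 0.00376).

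Epithelial genes were called about as often as genes in general, 17.6% of the stratified and 18.9% of the airway list against 16.7% of all genes. SPRR3, a cornified envelope protein of oesophageal-type epithelium, stood at 11, 3.57 and 11 CPM in SOT replicates and at 118, 51.5 and 169 CPM in normal replicates, without overlap (log2 fold change -3.73, SE 0.58, adjusted p = 0.00796). CRNN, cornulin of the same layer, fell from 250.0 ± 209 to 15.2 ± 12.5 CPM (adjusted p = 0.0205), a call that was lost with the SOT and normal libraries alone (adjusted p = 0.0527). KRT13 was at 4595 ± 2141 CPM against 8292 ± 4842 CPM and did not pass (adjusted p = 0.254). KRT17, a keratin of wounded epithelium, stood at 746, 436 and 137 CPM against 39.8 to 55.0 CPM (adjusted p = 0.0167), a call lost without normal replicate 1 or 2 (highest adjusted p 0.0671). Keratins are similar in sequence and may share reads. Of 34 stratified epithelium genes 4 rose and 2 fell. The rises numbered 0 without normal replicate 1 or 2 and 2 without SOT replicate 1 or 2, and the falls 5 without SOT replicate 3 and 3 without untreated replicate 1, untreated replicate 2 or SOT replicate 1.

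CLCA1, a secreted protein of goblet cell mucus, stood at 8.73, 37.7 and 16.4 CPM in SOT replicates and at 0.715, 0.726 and 0.764 CPM in normal replicates, without overlap (28.4-fold, adjusted p = 0.00316). The entry named MUC5AC, a gel-forming mucin, rose 11.4-fold (adjusted p = 0.00651). Another entry annotated as mucin-5AC, LOC103347164, stood at 129, 363 and 103 CPM in SOT replicates against 1.87, 6.73 and 8.87 CPM in normal replicates. With all 9 libraries its log2 fold change was 5.09 (adjusted p = 0.00591), and these entries may share reads. BPIFB1, a secreted protein of airway glands, stood at 896, 131 and 222 CPM against 11105, 14154 and 912 CPM. Normal replicate 3 was close to the highest SOT library, and the BPIFB1 call (adjusted p = 0.0400) held in 3 of the 9 fits that left out 1 library. Of 37 airway epithelium genes 3 rose and 4 fell, and the falls numbered 0 without normal replicate 1, 1 without untreated replicate 3 or SOT replicate 2, and 2 without normal replicate 2, untreated replicate 2 or SOT replicate 1. The rises numbered 1 without normal replicate 2 and 5 without SOT replicate 1.

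Antioxidant genes did not move as a group. The list of 37 antioxidant and NRF2 target genes had 5 rises and 6 falls, with a median log2 difference of 0.15. Of the list 29.7% passed, against 16.7% of all genes. Without untreated replicate 3, 1 rose and 3 fell. The rises numbered 2, 1, 3, 2 and 1 without normal replicates 1 and 2, untreated replicates 1 and 2 and SOT replicate 2, and 9 without SOT replicate 3, while the falls numbered 2 without normal replicate 1, normal replicate 2 or SOT replicate 2. HMOX1, the haem oxygenase that NRF2 and haem induce, stood at 80.6, 126 and 62.6 CPM in SOT replicates and at 31.2, 29.0 and 38.2 CPM in normal replicates, without overlap (2.74-fold, adjusted p = 0.00944). SOD2, which clears superoxide in mitochondria, was lower at 261 ± 36.3 CPM against 476 ± 37.4 CPM (adjusted p = 0.00861), and ME1, the cytosolic malic enzyme that makes NADPH, fell 3.43-fold (adjusted p = 0.0146). NQO1, the usual NRF2 reporter, was at 48.6 ± 19.5 CPM against 45.6 ± 4.26 CPM (adjusted p = 0.833), and the peroxide-splitting catalase gene CAT was at 134 ± 18.4 CPM against 142 ± 30.6 CPM (adjusted p = 0.766). FTL, the ferritin light chain that stores iron, rose from 505 ± 64.3 to 1350.5 ± 368 CPM (adjusted p = 0.00751).

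Proliferation genes lay above normal in all SOT libraries, but few passed. All 37 had a positive log2 difference, with a median of 0.95, and 34, 33 and 31 of them were above the highest normal library in SOT replicates 1, 2 and 3. Of all genes, 51.8% had a positive difference, and 34.6%, 36.1% and 34.4% were above the highest normal library in those replicates. MKI67, a marker of cycling cells, stood at 108, 109 and 118 CPM in SOT replicates and at 46.1, 53.9 and 132 CPM in normal replicates, so that normal replicate 3 was above all SOT libraries (adjusted p = 0.331). In the test 9 of the 37 rose (24.3%, against 16.7% of all genes that passed in either direction), and 28 did so without normal replicate 3. The count was 0 and 1 without normal replicates 1 and 2, 4, 4 and 3 without untreated replicates 1, 2 and 3, and 3 and 4 without SOT replicates 1 and 2.

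**Figure D5:**
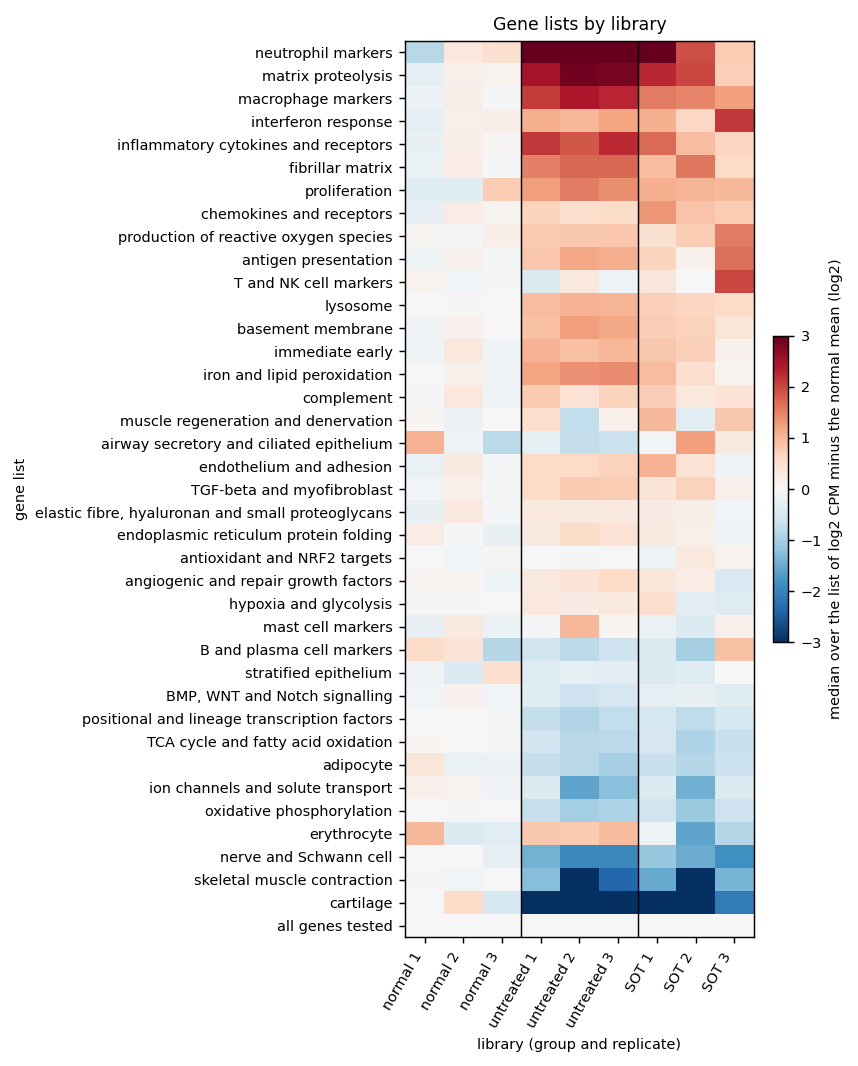
Rows are 38 gene lists and, last, all tested genes, and columns are the 9 libraries. Colour gives the median over a list's genes of log2 CPM minus the mean of the normal libraries, with red higher, blue lower and colours saturated at 3 and -3. In the SOT columns cartilage, muscle and nerve are below normal and macrophage and proteolysis genes above, while neutrophil markers fade from 4.10 in SOT replicate 1 to 0.75 in SOT replicate 3.

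Some genes sat at the same level in both groups. The 5 tested genes with the smallest difference among those with a mean of at least 20 CPM were TSC22D2, DDX10, DGCR8, ZNF316 and POLDIP3. DGCR8, a cofactor of microRNA processing, stood at 53.4, 58.2 and 55.6 CPM in SOT replicates and at 57.1, 53.6 and 56.5 CPM in normal replicates.

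Untreated injured folds are given beside these values for reference, and both injured groups are read against the same normal libraries. CD68 was at 263 ± 13.3 CPM in untreated folds, above both the SOT level of 142 ± 11.6 CPM and the normal level of 34.4 ± 5.22 CPM. ASPN was at 1375 ± 215 CPM and COL1A1 at 11688 ± 187 CPM in untreated folds, with every untreated library above every SOT library. ELN was at 148 ± 20.1 CPM in untreated folds, below every SOT library. None of these 4 differences between SOT and untreated folds passed, with adjusted p of 0.0717, 0.232, 0.320 and 0.171.

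Between SOT and untreated folds 2 of 17344 genes passed (0.0115%), both lower with SOT, and 2183 had an unadjusted p under 0.05. DESeq2 called 682. The 2 genes were named only by a locus number and were picked out because they passed. LOC103345297, annotated as a LAT2-like adaptor of immune cell signalling, was at 21.5, 24.9 and 23.0 CPM in SOT replicates, 53.4, 67.8 and 62.3 CPM in untreated replicates and 9.36, 10.8 and 9.96 CPM in normal replicates (adjusted p = 0.0262 against untreated). LOC103346274, annotated as CMRF35-like molecule 6 of the CD300 receptor family, whose members are similar enough to share reads, was at 2.06, 1.68 and 2.16 CPM, 11.7, 9.19 and 12 CPM and 0.830, 0.968 and 1.18 CPM in the same order. Both sat between normal and untreated folds with no overlap. Without untreated replicate 3 no gene passed this comparison, and none did without any single normal library or untreated replicate 1 or 2. The count was 1 without SOT replicate 2 or 3 and 413 without SOT replicate 1.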

How the data were processed

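The authors deposited 1 table of 20525 genes with a whole-number read count and an FPKM value per library, per the file headers. Per the submitters' processing notes, cutadapt 1.9, HISAT2 2.0.4, StringTie 1.3.4d, edgeR and the build OryCun2.0 were used. The role of each tool, the strand setting and the handling of multiply matching reads: not given in the sources used here. Overlapping, antisense and near-identical genes therefore cannot be told apart. Few of the deposited counts were exactly 1 (53 to 79 genes per library, against 350 to 419 with 4), so the counts may not be plain read tallies. Locus-only names were replaced by RefSeq symbols for 530 of 5734 genes.

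The deposited counts went into edgeR 4.0.16 (R 4.3.3). Genes of low count were filtered by group, libraries were scaled by TMM, and a robust quasi-likelihood model gave each group its mean, with all 9 libraries in the fit. P-values were adjusted by Benjamini-Hochberg over 17344 genes, and under 0.05 counted as passed. Limma 3.58.1 on log2(FPKM + 0.1) and DESeq2 1.42.0 were alternatives. On simulated data with 200 changed genes and a dispersion of 0.05, a log2 change of 1 was recovered for 56% of raised and 54% of lowered genes, a change of 2 for 100% and 93.9%. Replicate numbers were not used to pair libraries in the main fit. Same-numbered SOT and normal libraries did not deviate together, and SOT and untreated libraries were not checked for this.

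Named genes were the 10 that rose and 10 that fell most without overlap at 5 CPM or more, up to 4 per list, 29 fixed genes, the 5 most abundant each way and the 5 least changed. The members and the 38 lists were chosen with earlier results of these data known.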

Additional observations from a re-analysis of the deposited data

How the results depend on the processing

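The number of genes that differed between SOT and normal folds was 2888 and moved by more than 1.5 times under 3 alternatives besides left-out libraries. It was 1536 (677 higher, 859 lower) with the SOT and normal libraries alone, 4819 (2474 higher, 2345 lower) with DESeq2, and 1667 (927 higher, 740 lower) with a log2 fold change of at least 1 required. With 1 library left out it ranged from 1126 to 3217, the higher genes from 574 to 1994 and the lower genes from 552 to 1223. Total counts as library sizes shifted the median of all genes to 0.11 (log2) and made 65.5% of the differing genes higher, against 54.4%. The 2 genes that differed from untreated folds became 682 with DESeq2, 23 with limma-voom and quantile normalization, 0 with upper quartile scaling, 0 with total counts, 0 with limma on FPKM, 0 with the replicate block, and 0 to 413 with 1 library left out. With the replicate number as a block, 2597 genes differed from normal folds, and same-numbered SOT and normal libraries did not deviate together (r = -0.05, -0.02 and 0.08). The ratio of COL1A1 to COL3A1 stayed higher in SOT folds, by 0.196 to 0.397 with 1 library left out. MRC1 turned to -0.52 (log2) without SOT replicate 1 and ranged up to 0.34 with other libraries left out, and the cause was not tested. With 3 libraries per group, precision rests on few samples.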

Other observations

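Several genes outside the gene lists differed steadily, and those named in this paragraph were chosen after their values were seen. GRN, the lysosomal growth factor progranulin, was at 319, 348 and 344 CPM in SOT replicates and at 118, 141 and 141 CPM in normal replicates (log2 fold change 1.34, adjusted p = 0.00255). MPEG1, the pore-forming perforin-2 of macrophages, was at 358, 474 and 383 CPM against 58.4, 90.5 and 85.1 CPM (log2 fold change 2.38). IGF2R, which sorts enzymes to lysosomes, was at 187, 193 and 177 CPM against 76.0, 70.4 and 85.0 CPM. NES, the intermediate filament nestin of regenerating muscle, vessels and nerve, was at 264, 225 and 157 CPM against 44.1, 45.5 and 43.2 CPM (log2 fold change 2.28). RECK, a membrane inhibitor of matrix metalloproteinases, was lower at 16.7, 13.9 and 17.7 CPM against 54.9, 74.8 and 60.6 CPM (log2 fold change -1.98). The SOT and normal values did not overlap in any of these 5 genes. Over all 17344 genes tested, 3093 were likewise above normal without overlap and 3222 below.

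Secretory genes moved in both directions. Of 6 genes annotated as microseminoproteins, small secreted proteins, 4 rose and 2 did not pass, and 1 of the 4 passed in every fit with 1 library left out. The gene named MSMB stood at 2.29, 15.6 and 58.1 CPM in SOT replicates, at 0, 0 and 0.153 CPM in normal replicates and at 0.188, 0.233 and 0 CPM in untreated replicates. Its rise over normal passed (adjusted p = 0.0132) but not without normal replicate 1 or 2 (highest adjusted p 0.0535), and its difference from untreated folds did not (adjusted p = 0.147). LOC100345995, the copy that passed in every such fit, stood at 57.4, 337 and 157 CPM in SOT replicates against 1.20, 5.23 and 7.40 CPM in normal replicates (adjusted p = 0.00806). Copies of the family may share reads. In the other direction, the amylase copy LOC100343225 stood at 0.327, 0.393 and 0.632 CPM in SOT replicates against 47.6, 40.2 and 46.1 CPM in normal replicates (adjusted p = 0.00861), and mammaglobin-B, LOC100351293, at 0.961, 0.467 and 2.19 CPM against 302, 17.7 and 84.8 CPM (adjusted p = 0.0117). How much gland each dissected fold held was not tested.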
